A study of Homo sapiens with 8 samples.

Results

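The high mobility group (HMG) genes encode small, abundant, non-histone chromatin proteins. The 10 members described here were HMGA1, HMGA2, HMGB1, HMGB2, HMGB3, HMGN1, HMGN2, HMGN3, HMGN4 and HMGN5. They were chosen by family membership, with earlier results of these data known, as 10 of the 58302 rows of the gene count table. RNA sequencing had been performed in DLD1 cells, a human colorectal cancer line. OE-WT cells stably overexpressed wild-type TRMT6/61A from a lentiviral construct, and CTRL cells carried the empty vector and are given the genotype WT and the treatment Control in the labels. TRMT6/61A is the enzyme complex that writes N1-methyladenosine (m1A) on tRNA. Each group had 2 libraries, each sequenced in 2 lanes and given as 1 column. All cells were washed in cycloheximide, a translation inhibitor, before lysis, and RNA was taken from the cleared lysate rather than from whole cells. The study's methods name more biological replicates per group than the 2 libraries in the labels and the table, on which every SD and p here rests. The labels do not say which culture each library came from, so the p-values measure the spread between libraries, which may be technical. The catalytically inactive mutant was not analysed here.

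The HMG proteins fall into 3 families that bind chromatin in different ways. HMGA proteins hold the minor groove of AT-rich DNA with short AT-hooks, are high in embryonic and cancer cells and accumulate in the condensed chromatin foci of some senescent cells. HMGB proteins bend DNA with a pair of HMG boxes, carry an acidic C-terminal tail, and HMGB1 can leave the nucleus and act as an alarm signal outside the cell. HMGN proteins bind the nucleosome core itself and counteract compaction by linker histone H1.

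The sequences that set the families apart are given first, from the GENCODE annotation of GRCh38. HMGA2, the member with the strongest change, has 3 AT-hooks, encoded on the plus strand of chromosome 12. They are shown because they are the parts that touch DNA, with capitals for the codons of the arginine-glycine-arginine-proline core:
HMGA2 hook 1, chr12:65825346-65825375: aagagaggaCGCGGCCGCCCCaggaagcag
HMGA2 hook 2, chr12:65828025-65828054: aagagacccAGGGGAAGACCCaaaggcagc
HMGA2 hook 3, chr12:65838540-65838569: aaacggccaAGAGGCAGACCTaggaaatgg

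The acidic tails of the HMGB proteins are shown because the study examined the translation of GAG and GAC, the codons read by tRNA-Glu-CTC and tRNA-Asp-GTC, and these tails are unbroken runs of glutamate and aspartate codons. Capitals mark GAG. HMGB1 and HMGB2 lie on the minus strand and HMGB3 on the plus strand, and each sequence is written in the direction of the mRNA:
HMGB1, chr13:30461360-30461449: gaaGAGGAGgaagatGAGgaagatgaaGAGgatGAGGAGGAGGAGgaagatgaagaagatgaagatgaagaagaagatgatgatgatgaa
HMGB2, chr4:173332083-173332148: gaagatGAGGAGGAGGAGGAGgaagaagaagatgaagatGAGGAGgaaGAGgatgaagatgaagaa
HMGB3, chrX:150987852-150987911: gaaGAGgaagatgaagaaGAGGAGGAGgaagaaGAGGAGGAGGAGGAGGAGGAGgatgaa

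The tail of HMGB1 has 30 codons, of which 8 are GAG and 0 are GAC. The tail of HMGB2 has 22 codons with 8 GAG, and that of HMGB3 has 20 codons with 11 GAG, both again with 0 GAC. All aspartate codons of the tails are GAT, 10 in HMGB1, 5 in HMGB2 and 2 in HMGB3. The shorter the tail, the larger was its share of GAG. In each of these 3 genes the run ends at the stop codon.

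The nucleosome-binding core of the HMGN proteins is shown because it is the part that binds the nucleosome. Capitals mark the bases that differ from HMGN2. HMGN2 and HMGN4 are on the plus strand and the other members on the minus strand, again written as in the mRNA:
HMGN1, chr21:39348422-39348445: agGagatcGgcgCggttgtcAgct
HMGN2, chr1:26473709-26473732: agaagatccgcgaggttgtctgct
HMGN3, chr6:79208547-79208570: agaCgGtcTgcCagAttgtcAgcG
HMGN4, chr6:26545273-26545296: agGagatcAgcTCggttgtctgct
HMGN5, chrX:81118730-81118753: agaagatcTgcCaggttgtctgct

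The core of HMGN5 differs from that of HMGN2 at 2 of 24 bases, those of HMGN1 and HMGN4 at 4, and that of HMGN3 at 7. Over the whole coding sequence HMGN2 and HMGN4 were the closest pair of the family, at 86.4% identity, and HMGN4 has 1 coding exon where HMGN2 has 6. HMGB1 and HMGB2 were identical at 76.4% of coding bases, and HMGA1 and HMGA2 at 54.2%.

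The counts on genes summed to between 10327498 and 12379671 per library. Across genes, Pearson's r of log2 CPM, in which counts are brought to one library size by the TMM method, was 0.992 for the OE-WT pair, 0.994 for the CTRL pair and 0.980 to 0.986 for libraries of different groups. Genes are not independent replicates of each other. TRMT6 had 196 ± 21.1 CPM in OE-WT and 54.0 ± 1.99 in CTRL (SD, n = 2 libraries each), a log2 fold change of 1.86 with an adjusted p of 8.5e-13 by edgeR's quasi-likelihood test. TRMT61A had 134 ± 5.02 and 57.9 ± 1.48 CPM, a log2 fold change of 1.21 with an adjusted p of 1.9e-10 from the same test, so both labelled genes were higher in OE-WT. Of 11 epithelial markers 0 were at 0 in all libraries, and their summed level was 12208 and 12553 CPM in OE-WT and 11214 and 11011 in CTRL. CDX1, an intestinal transcription factor, was under 1 CPM. Markers of fibroblasts, leukocytes and endothelium summed to between 0.590 and 3.22 CPM per list and library, with DCN, COL1A2, CD3E and CDH5 at 0 in all 4 libraries. Of the epithelial markers, KRT8 and KRT18 were higher and CDH1, CDH17, KRT19 and KRT20 lower, and of the other lists VWF, at 0.504 and 0.590 CPM in OE-WT and 2.33 and 1.14 in CTRL, was lower. Their part in the results was not tested.

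Of the 10 HMG genes, 9 passed the filter on low counts and were tested among 14133 genes, and HMGN5 was not. HMGA2, HMGB1 and HMGN2 rose in OE-WT (adjusted p below 0.05, with the adjustment over every tested gene), and 0 members fell. That is 3 of 9 members higher, beside 9.44% of all genes tested, while 11.6% of all genes were lower. On the TMM scale, the OE-WT libraries of all 9 members lay above the CTRL libraries without overlap, beside 29.9% of all genes tested. With library size scaling only, 8 of 9 members had a positive log2 fold change, with HMGA1 at 0.00 and HMGB2 at -0.02. At an unadjusted p below 0.05 there were 5 of 9 members, beside 4784 of 14133 genes. With the study's thresholds, which ask for an unadjusted p below 0.05 together with a log2 fold change beyond 1 in either direction, 0 members passed in edgeR and 0 in DESeq2, beside 3.15% of all genes in edgeR. The median log2 fold change of the 9 members was 0.19 and that of all genes tested 0.01. In bulk RNA, a larger share of cells that carry a transcript and more transcript per cell cannot be told apart.

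**Figure D1:**
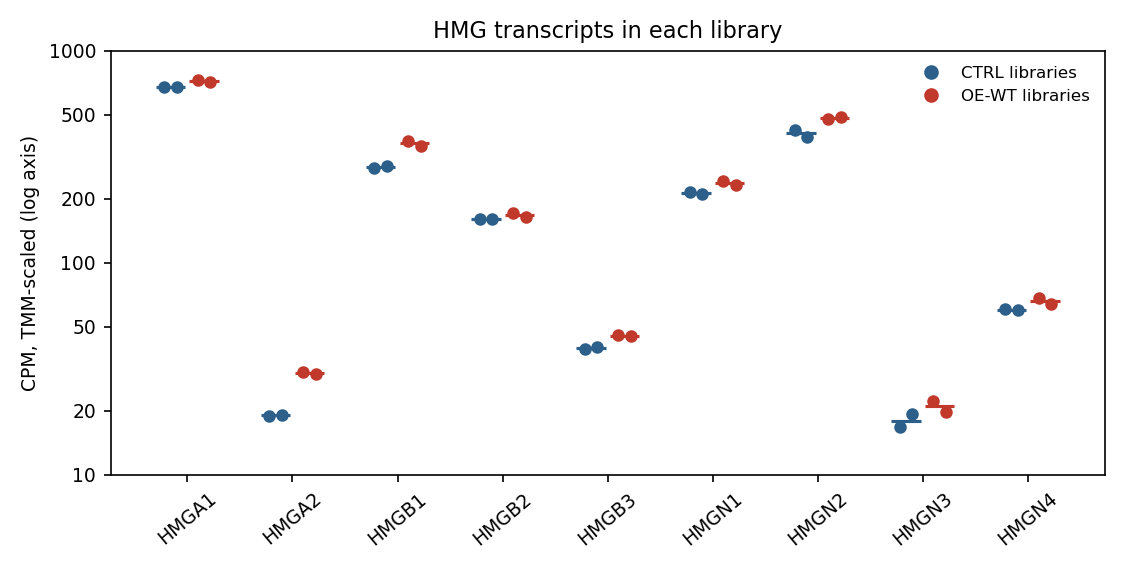
HMG transcripts in each library. The vertical log axis gives CPM scaled by TMM, each point is 1 library (blue CTRL, red OE-WT) and bars are the means of 2 libraries; for all 9 genes shown both red points lie above both blue points, with the widest gap for HMGA2 at 30.2 against 19.1 CPM, and HMGN5, with 0 to 3 counts, is not drawn.

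In the HMGA family HMGA2 rose and HMGA1 did not pass the test. HMGA2 (ENSG00000149948, GRCh38 chromosome 12, 65824460 to 65966291), an oncofetal regulator of growth and stemness, had 303 counts in each OE-WT library and 245 and 236 in the CTRL libraries. Scaled to library size these were 30.5 and 29.8 CPM in OE-WT and 19.0 and 19.2 in CTRL. The libraries of a group differed by far less than the groups. The log2 fold change of HMGA2 was 0.66 (SE 0.10, 95% interval 0.44 to 0.87), 1.58-fold higher in OE-WT, with an adjusted p of 9.5e-05 by edgeR's quasi-likelihood test. Of all genes tested, 3.42% had a log2 fold change at least as high. HMGA2 remained significant in each of 12 alternative analyses, with a log2 fold change between 0.54 and 0.67.

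HMGA1 (ENSG00000137309, chromosome 6, 34236873 to 34246231), the HMGA protein of proliferating and transformed cells, had 724 and 713 CPM in OE-WT and 673 and 671 in CTRL. The groups did not overlap on this TMM scale, yet the log2 fold change was only 0.10 (SE 0.06, 95% interval -0.04 to 0.23), with an adjusted p of 0.304 from the same test. Its interval lies wholly below that of HMGA2. Within each library the ratio of HMGA2 to HMGA1 counts, which needs no scaling between libraries, was 0.0422 and 0.0418 in OE-WT and 0.0283 and 0.0285 in CTRL. These ratios differed between the groups by more than the spread between libraries, but HMGA1 (61.3% GC) and HMGA2 (38.8% GC) lie far apart in transcript GC content, over which the fold changes of all genes had a trend. With that trend removed the pair came closer, at a log2 fold change of 0.54 for HMGA2 and of 0.25 for HMGA1, which was then itself called higher (adjusted p = 0.0097 by edgeR's quasi-likelihood test).

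HMGA2 mRNA is a textbook target of let-7, a microRNA family that pairs through its seed with the 3′ UTR. Sites for it are shown because HMGA2 is the member that changed most. The RefSeq GRCh38 sequence of let-7a-5p is given with its seed, bases 2 to 8, in capitals, and the 3′ UTR stretches, on the plus strand, with the matching CTACCTC in capitals:
let-7a-5p: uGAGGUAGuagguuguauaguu
HMGA2 site 1, chr12:65963298-65963320: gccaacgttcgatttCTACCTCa
HMGA2 site 2, chr12:65964533-65964555: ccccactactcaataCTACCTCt
HMGA2 site 3, chr12:65964945-65964967: ttgacttgcaaagacCTACCTCc
HMGA2 site 4, chr12:65965798-65965820: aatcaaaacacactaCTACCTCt
HMGA1 site 1, chr6:34245829-34245851: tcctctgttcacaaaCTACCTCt

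The canonical 3′ UTR of HMGA2, 2999 bases long, holds 4 matches to the let-7 seed, that of HMGA1, 1347 bases long, holds 1, and those of the other 8 members hold 0. Only the mRNA strand was searched, and UTR lengths differ between genes. Of 19131 genes with an annotated 3′ UTR, 9.78% hold at least 1 match and 12 genes hold at least 4. A letter match is a description, and microRNAs were not measured here. Among 12 regulators of HMGA mRNA, LIN28B, which blocks let-7 maturation, was at 0 in all 4 libraries, and LIN28A had 0, 0, 0 and 3 counts.

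Of these 12 regulators 9 were tested, 3 were higher and 0 were lower, with a median log2 fold change of 0.24. The shares over all genes tested were 9.44% higher and 11.6% lower, and the median was 0.01. IGF2BP3, an mRNA-binding protein that can shield HMGA2 from let-7, had 12.1 and 11.7 CPM in OE-WT and 6.84 and 9.01 in CTRL, a log2 fold change of 0.59 (adjusted p = 0.015). DICER1, the nuclease that cuts microRNA precursors, had a log2 fold change of 0.58 (adjusted p = 0.026), and SP1, a transcription factor, one of 0.26 (adjusted p = 0.018), all by edgeR's quasi-likelihood test. MYC, which can activate HMGA1, had a log2 fold change of 0.03 (adjusted p = 0.838). These calls were not firm, since DESeq2 called 0 of the regulators and library size scaling or GC correction each left 1. Without CTRL replicate 1 IGF2BP3 was at 0.40 (adjusted p = 0.211), and without CTRL replicate 2 DICER1 was at 0.52 (adjusted p = 0.116) and SP1 at 0.21 (adjusted p = 0.128), in edgeR.

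The 3 genes whose pattern over the 4 libraries was closest to that of HMGA2, among 4309 genes of a mean CPM within 2-fold of it, were SMARCC1, NFKBIZ and U2SURP. Their centred log2 CPM differed from those of HMGA2 by a root mean square of 0.017, 0.019 and 0.028. SMARCC1, a core subunit of the SWI/SNF chromatin remodeller, had 44.9 and 42.5 CPM in OE-WT and 27.8 and 28.1 in CTRL. With 4 points in 2 groups, likeness mostly says that the fold changes were alike, here 0.65, 0.64 and 0.66.

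In the HMGB family HMGB1 rose, and HMGB2 and HMGB3 did not pass the adjusted test. HMGB1 (ENSG00000189403, chromosome 13, 30456704 to 30617597, minus strand) had 377 and 355 CPM in OE-WT and 281 and 286 in CTRL. The lower OE-WT library stood well above the higher CTRL library. The log2 fold change of HMGB1 was 0.37 (SE 0.06, 95% interval 0.23 to 0.50), 1.29-fold higher, with an adjusted p of 3.0e-04 by edgeR's quasi-likelihood test. Of all genes tested, 12.6% had a log2 fold change at least as high. The call held in 12 of 12 alternatives, with a log2 fold change between 0.24 and 0.40.

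HMGB2 (ENSG00000164104, chromosome 4, 173331376 to 173334432, minus strand), the HMGB protein of dividing cells whose loss is known from senescent cells, had 172 and 164 CPM in OE-WT and 160 and 161 in CTRL. Its log2 fold change was 0.07 (SE 0.06, 95% interval -0.07 to 0.20), with an adjusted p of 0.489 from the same test. The sign was not stable, at -0.02 with library size scaling only and -0.04 with the GC trend removed. HMGB3 (ENSG00000029993, chromosome X, 150980509 to 150990771), known from stem and progenitor cells, had 45.6 and 45.0 CPM in OE-WT and 39.1 and 40.1 in CTRL. Its log2 fold change of 0.19 (SE 0.08, 95% interval 0.02 to 0.37) had an unadjusted p of 0.028 and an adjusted p of 0.101 in edgeR.

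The HMGB balance shifted within libraries. The ratio of HMGB1 to HMGB2 counts was 2.19 and 2.16 in OE-WT and 1.76 and 1.78 in CTRL, without overlap. That of HMGB3 to HMGB1 was 0.121 and 0.127 in OE-WT and 0.139 and 0.140 in CTRL, so the ratio was lower in OE-WT in both libraries. With this number of libraries an exact permutation test of a single ratio, two-sided, gives at best a p of 0.333, so none is given.

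**Figure D2:**
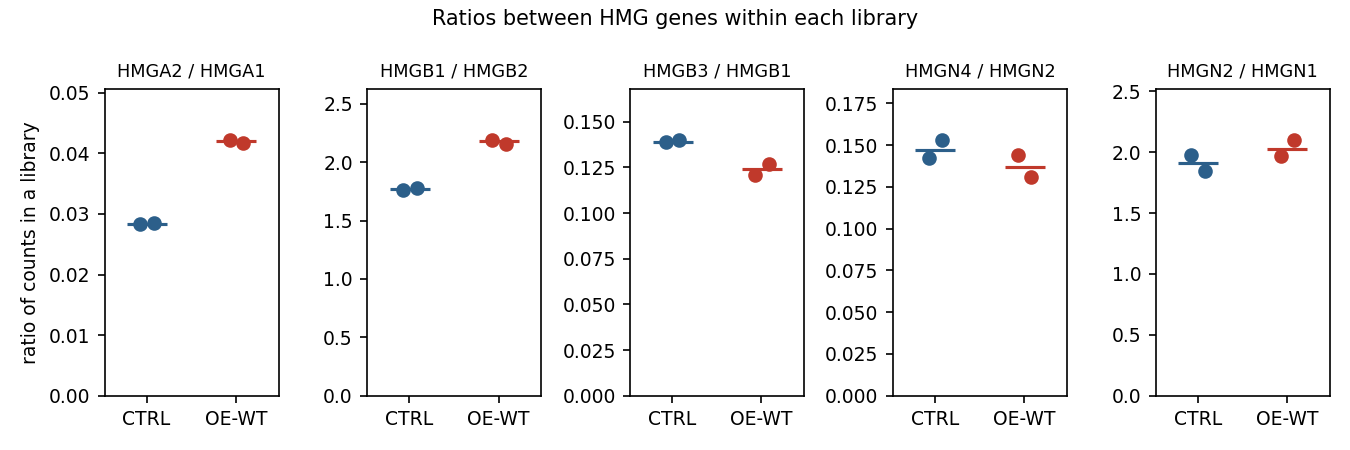
Ratios of the counts of 2 HMG genes within the same library. Each point is 1 library (blue CTRL, red OE-WT), bars are means, and the axes start at 0; the ratios of HMGA2 to HMGA1 and of HMGB1 to HMGB2 lie higher in both OE-WT libraries, HMGB3 to HMGB1 lies lower, and the 2 HMGN ratios overlap between groups.

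HMGB1 has many processed copies in the genome, which can take or lend reads. The annotation names 157 pseudogenes after the members, 48 of them after HMGB1 and 38 after HMGN2. Of the 157, 30 had any counts and 5 were tested. Counts on HMGB1 pseudogenes came to 16.0% of those on HMGB1, while those on HMGN2 pseudogenes came to 1.00% of HMGN2. Of the 100-base windows of the canonical HMGB1 transcript, 8.92% occur letter for letter in another gene's transcript, mostly in HMGB1P5. The share was 7.01% for HMGN2, all in HMGN2P5, 2.05% for HMGN1, 4.42% for HMGN3 and 0 for HMGN4 and HMGN5.

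HMGB1P5 (chromosome 3, 22381720 to 22382929), a transcribed processed copy, had 33.9 and 29.9 CPM in OE-WT and 25.0 and 24.4 in CTRL. Its log2 fold change was 0.37 (SE 0.10, adjusted p = 0.012 by edgeR's quasi-likelihood test), the same to 2 decimals as that of HMGB1. For HMGB1P6 (chromosome 15, 71164770 to 71165415) the change was 0.24 on the log2 scale (SE 0.11, adjusted p = 0.123). HMGN2P3, HMGN1P36 and HMGN2P5, with 11 to 30 counts per library, had log2 fold changes of 0.27, 0.27 and 0.10 and adjusted p-values of 0.587, 0.673 and 0.887 in edgeR. Reads from the 8.92% of HMGB1 windows that also occur in another gene's transcript are uncertain in origin. How reads from near matches were assigned was not tested. With the counts of all pseudogenes added to their parents, HMGA2, HMGB1 and HMGN2 were again the members called.

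In the HMGN family HMGN2 rose, and HMGN1, HMGN3 and HMGN4 had higher values in OE-WT that did not pass the adjusted test. HMGN2 (ENSG00000198830, chromosome 1, 26472440 to 26476642), a widely expressed nucleosome binder, had 475 and 488 CPM in OE-WT and 425 and 391 in CTRL. Its CTRL libraries were farther apart than those of any other member in absolute CPM, but stayed below both OE-WT libraries. The log2 fold change of HMGN2 was 0.24 (SE 0.07, 95% interval 0.10 to 0.38), 1.18-fold higher, with an adjusted p of 0.012 by edgeR's quasi-likelihood test. This call was the least firm of the 3. It was lost in 4 of 12 alternatives, among them without OE-WT replicate 2 (0.21, adjusted p = 0.056) and without CTRL replicate 2 (0.18, adjusted p = 0.119).

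HMGN1 (ENSG00000205581, chromosome 21, 39342315 to 39349647, minus strand), which acts in transcription and DNA repair, had 242 and 233 CPM in OE-WT and 215 and 211 in CTRL. Its log2 fold change of 0.16 (SE 0.06, 95% interval 0.02 to 0.29) had an unadjusted p of 0.023 and an adjusted p of 0.087 in edgeR. HMGN4 (ENSG00000182952, chromosome 6, 26538366 to 26546933), whose coding sequence is the closest to that of HMGN2, had 68.3 and 63.9 CPM in OE-WT and 60.3 and 59.7 in CTRL, a log2 fold change of 0.14 (SE 0.07, adjusted p = 0.198). The ratio of HMGN4 to HMGN2 was 0.144 and 0.131 in OE-WT and 0.142 and 0.153 in CTRL, and the groups overlapped. The ratio of HMGN2 to HMGN1, at 1.97 and 2.10 in OE-WT and 1.98 and 1.85 in CTRL, overlapped as well.

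HMGN3 (ENSG00000118418, chromosome 6, 79201245 to 79234689, minus strand) had 22.3 and 19.7 CPM in OE-WT and 16.7 and 19.3 in CTRL. The nearest libraries of the 2 groups almost touched, and the log2 fold change of 0.22 (SE 0.12, 95% interval -0.04 to 0.47) had an adjusted p of 0.219 by edgeR's quasi-likelihood test. The value rested on single libraries, at 0.13 without OE-WT replicate 1, 0.12 without CTRL replicate 1 and 0.33 without CTRL replicate 2, and was not called in any of these. HMGN3-AS1, an antisense gene that shares 144 exon bases with it, had counts of 50 and 47 in OE-WT, counts of 58 and 64 in CTRL and a log2 fold change of -0.01 (adjusted p = 0.987). HMGA2-AS1, which lies opposite 384 exon bases of HMGA2, had 4 to 10 counts per library. The strand setting of the counting is not given in the sources used here, so sense and antisense reads at these sites cannot be told apart.

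HMGN5 (ENSG00000198157, chromosome X, 81113699 to 81201913, minus strand), the largest and most acidic HMGN protein, was covered by 0 and 1 counts in OE-WT cells and by 1 and 3 in CTRL cells. A count of 0 allows up to 3 counts, or 0.302 CPM in the first OE-WT library. The ratio of OE-WT to CTRL was 0.313 with a 95% counting interval of 0.00636 to 3.16, which covers counting error only. A difference in HMGN5 was not detectable at this depth.

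**Figure D3:**
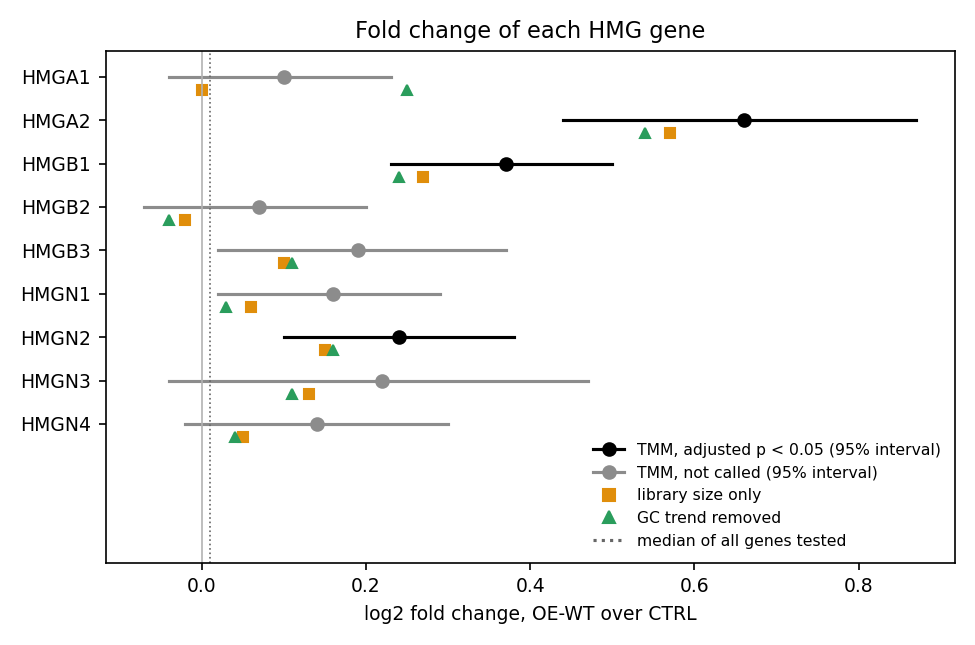
Log2 fold change of each HMG gene, OE-WT over CTRL. Circles are TMM-scaled estimates with 95% intervals (black at an adjusted p below 0.05), squares use library size only, triangles have the GC trend removed, and the dotted line is the median of all genes tested, 0.01; HMGA2 at 0.66 and HMGB1 at 0.37 stay to the right of 0.2 under all 3 scalings, while HMGB2 crosses 0 and HMGA1 ranges from 0.00 to 0.25.

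The fold changes of all genes had a trend with base composition, which the members followed only in part. In the fifth of genes with the lowest transcript GC content, 29.0 to 41.0%, the median log2 fold change was 0.13 and 11.4% of genes were higher. In the next, 41.0 to 46.1%, the median was 0.09 and the share of higher genes was larger, at 13.0%. In the 3 GC ranges above these, the medians were 0.02, -0.05 and -0.15 and the shares 11.2, 7.51 and 4.20%. HMGA2, HMGB1, HMGB2, HMGN1 and HMGN3 lie in the lowest GC range, HMGN2, HMGB3 and HMGN4 in the next, and HMGA1 in the highest, 58.2 to 85.5%. With this trend removed, HMGA2 had a log2 fold change of 0.54 (adjusted p = 7.6e-04) and HMGB1 0.24 (adjusted p = 0.010), while HMGN2 was no longer called at 0.16 (adjusted p = 0.130), all in edgeR. What gave rise to the trend was not tested.

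Summed over the 10 members, HMG transcripts made up 0.205 and 0.208% of the OE-WT counts and 0.196 and 0.190% of the CTRL counts. In TMM-scaled CPM the sums were 2156 and 2112 in OE-WT and 1889 and 1858 in CTRL, a log2 difference of 0.19. It was 0.24 without HMGA1, the member with the most counts. Of the family's counts, HMGB1 took 17.5 and 16.8% in OE-WT and 14.9 and 15.4% in CTRL. HMGA1 made up 33.6 and 33.8% in OE-WT and 35.6 and 36.1% in CTRL. HMGA2 made up 1.42 and 1.41% in OE-WT and 1.01 and 1.03% in CTRL. The groups did not overlap in the share of any of these 3 genes.

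Levels were compared between members per length, in as TPM (counts divided by the union of annotated exons and scaled to the same total in each library). In CTRL cells HMGA1 was highest at 582 ± 24.4 TPM (SD, n = 2 libraries for each value), a level met or passed by 0.890% of the genes tested. HMGN2 followed at 258 ± 25.5 and HMGB2 at 134 ± 4.63. HMGN1 had 85.1 ± 4.46, HMGB1 74.3 ± 2.04 and HMGN4 60.7 ± 2.89 TPM. HMGN3 had 26.9 ± 1.69 and HMGB3 20.4 ± 0.447 TPM. HMGA2 had only 2.55 ± 0.0910 TPM, with 68.6% of genes at or above it, and HMGN5 had 0.133 ± 0.0935.

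So the member that changed most was also the least abundant of those tested. In CTRL cells no neighbours in this order overlapped, but in OE-WT cells HMGN1 (80.3 and 84.2 TPM) and HMGB1 (82.1 and 84.2 TPM) did. With the length of the longest coding transcript in place of the exon union, HMGN1 was at 267 TPM and passed HMGB2 at 177, and the other ranks stood. The TPM scale is not fit for changes between groups here, because it moved the median of all genes tested to a log2 difference of -0.20. On it HMGA1, HMGB2, HMGB3, HMGN1 and HMGN4 had negative differences, between -0.14 and -0.01. Relative to that median all 9 members were positive, from 0.06 for HMGB2 to 0.65 for HMGA2. This centring brings the values back close to those of the TMM scale, so it is no separate test of direction.

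The share of GAG and GAC among codons, which the study examined, spanned much of the range of the genome in this family. Across transcripts, the study found that the frequency of these codons was not linearly related to the change in translation efficiency. It also concluded, from reporters with repeated GAG or GAC and an ARG2 gene with these codons replaced, that OE-WT enhanced their translation. Among 11624 tested coding genes the median share was 6.37%. In their longest coding sequences HMGA1 had 11.2%, HMGB3 10.5%, HMGB2 9.09%, HMGN5 8.51% and HMGB1 8.37%, all above it. HMGN2 had 5.56%, HMGN1 5.17%, HMGN3 4.62% and HMGN4 3.33%, below it. HMGA2 had 2.72% in its longest coding sequence, with 4.98% of genes below, but 6.42% in the canonical one.

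The HMGB and HMGN5 proteins are among the most acidic. A larger share of glutamate and aspartate codons was found in 27 genes for HMGB1, 75 for HMGB2, 117 for HMGB3 and 3 for HMGN5. Yet only 32.1% of the acidic codons of HMGB1 were GAG or GAC, and 39.6% for HMGB2, 47.7% for HMGB3 and 23.5% for HMGN5, while the median gene had 57.1%. HMGA1, at 80.0%, was the 1 member above that median. The 3 members that rose had 2.72, 8.37 and 5.56% GAG and GAC codons, spread over both sides of the median. Translation was not measured in these libraries.

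Other genes that act with the HMG proteins were read from lists written from general knowledge. Besides the members, 42 genes with an HMG box or a related domain were listed, and 26 of them were tested. Of these, 8 were higher and 4 were lower, with a median log2 fold change of 0.14. Among all genes tested, 9.44% were higher and 11.6% lower, with a median of 0.01. LEF1, a Wnt-responsive HMG-box transcription factor, had 38.6 and 39.0 CPM in OE-WT and 18.2 and 17.9 in CTRL, a log2 fold change of 1.11 (SE 0.10, adjusted p = 9.4e-08 by edgeR's quasi-likelihood test). TCF7L1, a relative of LEF1 that mostly represses, had 1.11 and 0.786 CPM in OE-WT and 2.64 and 1.79 in CTRL, a log2 fold change of -1.22 (SE 0.38, adjusted p = 0.026). The other named HMG-box genes changed less.

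PBRM1, a subunit of SWI/SNF, had a log2 fold change of 0.53 (adjusted p = 0.026), and TFAM, which packages mitochondrial DNA, one of 0.43 (adjusted p = 0.021). TOX2 had -0.48 (adjusted p = 0.028) and HMG20B, a subunit of a histone demethylase complex, -0.35 (adjusted p = 0.0058), all in edgeR. DESeq2 called 3 of the 8 higher and 0 of the 4 lower genes. The balance of the list depended on scaling: with library size only, 2 were higher and 6 lower. With the GC trend removed, 5 were higher and 1 was lower. LEF1 was called in every alternative. A single library decided others: without OE-WT replicate 1 PBRM1 was at 0.38 (adjusted p = 0.230) and TFAM at 0.30 (adjusted p = 0.214), and without CTRL replicate 1 TCF7L1 was at -0.91 (adjusted p = 0.306) and TOX2 at -0.28 (adjusted p = 0.377), in edgeR. HMG20B lost its call with the GC trend removed (-0.15, adjusted p = 0.233).

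**Figure D4:**
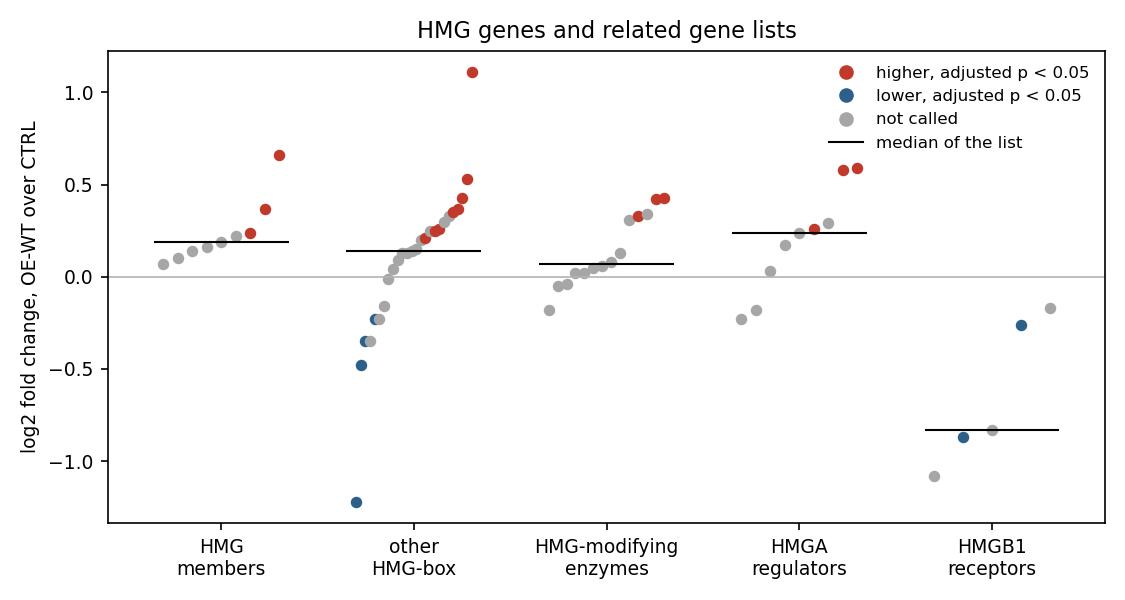
Log2 fold change of every tested gene, OE-WT over CTRL, in the HMG members and 4 lists of related genes. Each point is a gene, red or blue where edgeR's adjusted p was below 0.05 and grey otherwise, and bars are list medians; the members lie between 0.07 and 0.66, LEF1 stands at 1.11, and the tested HMGB1 receptors and partners lie all below 0.

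Few receptors and partners of extracellular HMGB1 had enough counts to be tested in these cells. Of 13 listed, TLR4, TREM1 and THBD were at 0 in all libraries and 5 were tested, all with negative log2 fold changes and a median of -0.83. Of these, 2 were lower and 0 were higher, beside 11.6% lower and 9.44% higher among all genes tested. CD24, a surface glycoprotein that binds HMGB1 and dampens its signal, had 60.6 and 74.2 CPM in OE-WT and 128 and 119 in CTRL, a log2 fold change of -0.87 (SE 0.08, adjusted p = 2.0e-07 by edgeR's quasi-likelihood test). SDC1, a heparan sulfate proteoglycan, had 141 and 150 CPM in OE-WT and 179 and 170 in CTRL, a log2 fold change of -0.26 (adjusted p = 0.0070). AGER, the receptor RAGE, had counts of 8 and 9 in OE-WT and of 19 in each CTRL library, a log2 fold change of -0.83 that did not pass the test (adjusted p = 0.156). The median of the list is this value, from a gene with few counts. LY96 had the lowest log2 fold change, -1.08, and did not pass either (adjusted p = 0.082 in edgeR). Its counts were 14 and 4 in OE-WT and 25 and 23 in CTRL. The call of SDC1 was lost without OE-WT replicate 1 (-0.21, adjusted p = 0.072), without CTRL replicate 1 (-0.23, adjusted p = 0.068) and with the GC trend removed (-0.13, adjusted p = 0.184).

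Among 14 enzymes and carriers that modify or export HMG proteins, all tested, 3 were higher and 0 were lower. Beside these stand 9.44% higher and 11.6% lower among all genes tested. The median log2 fold change of the list was 0.07, and that of all genes tested 0.01. PARP1, which ADP-ribosylates HMGB1, had 204 and 200 CPM in OE-WT and 151 in each CTRL library, a log2 fold change of 0.42 (SE 0.06, adjusted p = 7.4e-05 by edgeR's quasi-likelihood test). XPO1, the exportin that carries HMGB1 out of the nucleus, had 115 and 99.7 CPM in OE-WT and 80.6 and 89.5 in CTRL, a log2 fold change of 0.33 (adjusted p = 0.0039), which was lost without OE-WT replicate 1 (0.23, adjusted p = 0.058). PRMT6, which methylates HMGA1, had a log2 fold change of 0.43 (adjusted p = 0.049) and lost the call in most alternatives, among them without OE-WT replicate 2 (0.30, adjusted p = 0.269). The acetyltransferases EP300, CREBBP and KAT2B had log2 fold changes of 0.08, 0.02 and 0.31 and did not pass the test.

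Linker histones compete with HMG proteins for the nucleosome. Of the linker histone genes reported here, H1-2, H1-3, H1-4 and H1-5 were higher. Among all genes tested 9.44% were higher and 11.6% lower. H1-10 had a log2 fold change of -0.15 that did not pass the test (adjusted p = 0.114 by edgeR's quasi-likelihood test). H1-3 had 5.94 and 7.17 CPM in OE-WT and 1.79 and 1.46 in CTRL, a log2 fold change of 2.00 (adjusted p = 8.5e-06). H1-5 had a log2 fold change of 1.59 (adjusted p = 3.9e-04), H1-4 of 1.54 (adjusted p = 9.6e-09) and H1-2 of 0.53 (adjusted p = 6.1e-05), all by edgeR's quasi-likelihood test. Messages of these 4 genes mostly lack poly(A) tails, and the sources name poly(A) selection in the labels and removal of ribosomal RNA in the methods. The part of RNA selection in these values was not tested.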

How the data were processed

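RNA sequencing counts of 4 libraries of DLD1 cells were analysed. Per the study's methods, reads were trimmed with Cutadapt, aligned with HISAT2 and counted per gene with HTSeq; the submitters' processing notes name HISAT2 2.2.1, featureCounts 2.0.0, DESeq2 1.34.0 and GRCh38. The authors deposited raw counts per gene without normalization. The annotation release is not given in the sources used here. GENCODE release 44 matched 57532 of 58302 identifiers, including 10 of 10 members.

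Counts were fitted in 1 model over all 4 libraries with edgeR 4.0.16 in R 4.3.3 (filter by group, minimum count 10, TMM, quasi-likelihood test, no replicate block), with Benjamini-Hochberg adjustment over 14133 genes. SE is the log2 fold change over the square root of F. The labels do not say whether same-numbered libraries were paired. Their deviations correlated at -0.0851 (across genes), which with 2 libraries per group cannot decide it. The alternatives tried were size factors by RLE, scaling by library size alone, 2 other count filters, a replicate block, a lowess GC trend (span 0.3, 82 genes without a GC value left out), pseudogene counts added to parents, each library left out and DESeq2 1.42.0. Chosen after seeing the data were the codon share of the canonical transcript and, with a library left out, a dispersion estimated from the 3 libraries that remained in place of a preset one. Steps were tested on simulated data. Named were all members, TRMT6 and TRMT61A, up to 3 higher and 3 lower called genes per list, the 5 pseudogenes with the most counts and the 3 genes most like the member with the lowest adjusted p. Other genes were named after their values were seen. The result of 1 gene is not reported here, and where it would enter a list no count or median of that list is given. Members and lists were chosen with earlier results of these data known. Figures were drawn with matplotlib 3.10.9 in Python 3.11.15.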

Additional observations from a re-analysis of the deposited data

How the results depend on the processing

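Over 12 alternatives, 101 of 108 values of the 9 tested members kept their direction and their side of the threshold. HMGA1 was called with the GC trend removed, HMGN2 lost its call in 4 alternatives (library size only 0.15, adjusted p = 0.227; GC trend removed 0.16, adjusted p = 0.130; and without OE-WT or CTRL replicate 2), and HMGB2 reversed to -0.02 with library size only and -0.04 with the GC trend removed, in edgeR. Library size only cut the share of higher calls among all calls from 44.8 to 23.0% and moved the median of all genes to -0.08. The summed HMG level of 0.19 (log2) was 0.24 without HMGA1 and 0.10 with library size only. Genes at an adjusted p below 0.05 numbered 2976, but 1373 with DESeq2 and 1903 to 2852 with a library left out, lowest without CTRL replicate 1. Genes past the study's thresholds numbered 445, but 738 with no filter beyond 1 count, 216 with 10 counts required in every library and 288 with DESeq2. The replicate block called 2658 genes and 3 members, HMGA2, HMGB1 and HMGN2. The cause of these shifts was not tested. Leaving out a library reduces its group to 1, which is assumed to vary like the others. With 2 libraries per group, the small change of HMGN3 was not told apart from the spread between libraries (SE 0.12). A change in HMGN5, with 0 to 3 counts per library, is beyond the depth.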

Other observations

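Of the 26 tested HMG-box genes, 8 were higher and 4 lower, beside 9.44% higher and 11.6% lower among all genes tested. The naming rule took 3 in each direction, which left 5 higher and 1 lower. These are given here after their values were seen. With library size only the whole list had 2 higher and 6 lower, and DESeq2 called 3 higher and 0 lower. SOX9, a transcription factor of intestinal stem and Paneth cells, had 267 and 258 CPM in OE-WT and 223 and 214 in CTRL, a log2 fold change of 0.26 (adjusted p = 0.0054 by edgeR's quasi-likelihood test). SOX4, a progenitor factor, had 102 and 91.6 CPM in OE-WT and 72.3 and 80.1 in CTRL, a log2 fold change of 0.35 (adjusted p = 0.0025). SSRP1, a subunit of the histone chaperone FACT, had 233 and 232 CPM in OE-WT and 194 and 208 in CTRL, with a log2 fold change of 0.21 (adjusted p = 0.025). NSD2, a histone methyltransferase, and SMARCE1, a subunit of SWI/SNF, had log2 fold changes of 0.25 (adjusted p = 0.0099) and 0.37 (adjusted p = 0.049). HMGXB3 was lower, with 55.1 and 48.5 CPM in OE-WT and 60.3 and 61.0 in CTRL, a log2 fold change of -0.23 (adjusted p = 0.048). SOX2, SOX11 and SOX17, factors of other lineages, were at 0 in all 4 libraries, as was HMGB4, a relative of HMGB1 known from the testis.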
